A study of Mus musculus with 9 samples.

Results

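Rgs genes encode regulators of G protein signalling. The 9 genes followed were Rgs1, Rgs2, Rgs3, Rgs10, Rgs12, Rgs14, Rgs16, Rgs18 and Rgs19, taken by symbol from the 20 Rgs genes among the 37980 genes of the deposited table. They were measured by RNA-seq in myeloid progenitors (MPs, Lin-ckit+Sca1- cells) from 9 samples, 4 of NA MPs and 5 of WT MPs, with 100000 cells in a sample, sorted from C57BL/6 mouse bone marrow 3 months after transplantation, as the labels give it, while the study's methods name a later month. NA MPs were Tdtomato+ progeny of multipotent progenitors (MPPs) that carried the Nup98-Hoxa10hd fusion gene (NA), switched on from the Rosa26 locus by Vav-Cre, a recombinase active in blood cells. WT MPs were sorted by CD45.2 from mice that had received WT MPPs, so the sort differed between the groups along with the fusion, and the effects of these cannot be told apart. All recipients were irradiated adult C57BL/6 mice that had also received helper bone marrow cells. Recipients are described as CD45.2+ too, while the study's captions and staining mark WT donor cells by CD45.1. Donor, recipient and helper origin of the WT MPs therefore cannot be told apart. The sources used here do not say how many mice went into a sample, so the p-values measure only the spread between these samples.

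A G protein-coupled receptor, once bound by its ligand, loads GTP onto the alpha subunit of a G protein, which then leaves its beta and gamma partners and passes the signal on. RGS proteins bind the active alpha subunit and speed up its GTP hydrolysis, so that the signal ends sooner. In blood cells they are best known for limiting responses to chemokines, the signals that hold progenitors in the marrow or draw leukocytes to a tissue. Rgs1, Rgs2 and Rgs16 are known as genes whose transcripts appear quickly after stimulation and are lost quickly, and they are called quickly induced members here. The other 6 are called the other members.

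Rgs2, Rgs13, Rgs1, Rgs21 and Rgs18 follow each other in this order on the minus strand of chromosome 1, with no other protein-coding gene between them (mm10, annotated by GENCODE M21). Rgs2 lies at chr1:143999338-144004161, Rgs1 at chr1:144242296-144249242 and Rgs18 at chr1:144752683-144775435. Rgs16 lies further along, at chr1:153740349-153745468 on the plus strand, next to Rgs8. The members outside chromosome 1 lie alone, Rgs3 at chr4:62559847-62704001, Rgs10 at chr7:128373621-128418758, Rgs12 at chr5:34949445-35039644, Rgs14 at chr13:55369732-55384687 and Rgs19 at chr2:181688419-181693977. Rgs12 and Rgs16 share exon sequence with an antisense gene, and the library kit is not described as keeping strand, so reads of these pairs cannot be told apart.

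RefSeq promoter sequences (GRCm38.p6) could be matched to 6 of the 9 members, with 10 start sites in all. The 3 without an entry were Rgs1, Rgs14 and Rgs18, so their promoters were not searched for any motif. Those of Rgs2 and Rgs16 are shown because these quickly induced genes lie far apart in level. Each is the 250 bases before the start, 5′ to 3′ on the gene's strand, for Rgs2 chr1:144004150-144004399 (minus) and for Rgs16 chr1:153740103-153740352 (plus). Capitals mark TGACG, part of the cAMP response element TGACGTCA, and the CCAAT box CCAAT, each searched on both strands, so that CGTCA and ATTGG are matches on the other strand.
Rgs2: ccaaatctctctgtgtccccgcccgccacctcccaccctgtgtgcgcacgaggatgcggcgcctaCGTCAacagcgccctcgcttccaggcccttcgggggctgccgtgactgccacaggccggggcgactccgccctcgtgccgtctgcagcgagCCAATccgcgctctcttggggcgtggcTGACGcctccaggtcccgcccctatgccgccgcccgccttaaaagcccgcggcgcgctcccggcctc
Rgs16: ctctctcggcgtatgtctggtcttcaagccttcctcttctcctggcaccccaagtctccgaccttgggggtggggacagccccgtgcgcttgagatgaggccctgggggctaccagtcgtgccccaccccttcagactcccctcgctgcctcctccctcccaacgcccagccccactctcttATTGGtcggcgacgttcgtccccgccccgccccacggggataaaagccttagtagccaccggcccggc
The Rgs2 promoter held TGACG at 185 and 67 bases before the start and CCAAT at 94 bases, and the Rgs16 promoter held CCAAT at 68 bases. TGACG occurred in 17.8% and CCAAT in 33.9% of 32851 promoter windows of the same length. Of the 10 start sites, 2 held TGACG, 1 of Rgs2 and 1 of Rgs12. The complete cAMP response element (1.55% of windows), the Egr motif GCGTGGGCG (0.536%), the CArG box (1.47%) and the Hox-Pbx motif TGATTNAT (2.83%) matched at none of them. The AP-1 motif TGANTCA (6.75% of windows) matched at 1 start site, of Rgs12. The sequence TATAAA of the TATA box (12.4%) matched at both of Rgs3, at 100 and 177 bases before the start.

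The files hold normalized counts, which are estimated gene counts divided by a factor for each sample. These summed to between 6602851 and 6734284 per sample. The factors could be read from the steps between low values, and the totals before division were between 5557719 and 8106142. A floor of 3 counts is then 2.48 to 3.60 normalized counts, for counting error only. Groups were compared by limma on log2(normalized count + 1), with Benjamini-Hochberg adjustment over the 11987 genes that passed a filter on low values. All log2 fold changes are NA MPs over WT MPs on that scale, and errors of normalized counts are SDs over 4 NA MP and 5 WT MP samples. In a principal component analysis the groups separated on component 1 (65.8% of the variance), and NA MP replicate 1 stood apart on component 2 (6.12%), at 20.3 against -8.93 to -3.01 in the other NA MP samples. Without it, 5 members had an adjusted p under 0.05, as with it, but they were not the same 5: Rgs3 was lost and Rgs12 gained. As the label check, Hoxa10 had 129 ± 17.7 normalized counts in NA MPs and 8.05 ± 2.57 in WT MPs, and Nup98 956 ± 81.8 and 599 ± 29.9, although the fusion cannot be told apart from the endogenous genes. Mpo, a granule enzyme gene of MPs, and Kit, used in the sort, had means of 107675 and 2964 normalized counts in NA MPs and 103947 and 3039 in WT MPs.

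Of the 9 members, 8 passed the filter, and 5 of these were higher in NA MPs at an adjusted p under 0.05. None was lower. Over all tested genes 34.3% passed this threshold, 16.9% higher and 17.3% lower. The median log2 fold change was 0.35 for the 8 members and -0.01 for all tested genes. The rises were unequal, from 2.26 on the log2 scale for Rgs1 to 0.26 for Rgs18. NA MPs and WT MPs did not overlap for 5 members, Rgs1, Rgs2, Rgs14 and Rgs18 above and Rgs10 below, where 26.3% of all tested genes were without overlap. In bulk samples, fewer cells of a type and less RNA per cell cannot be told apart.

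**Figure D1:**
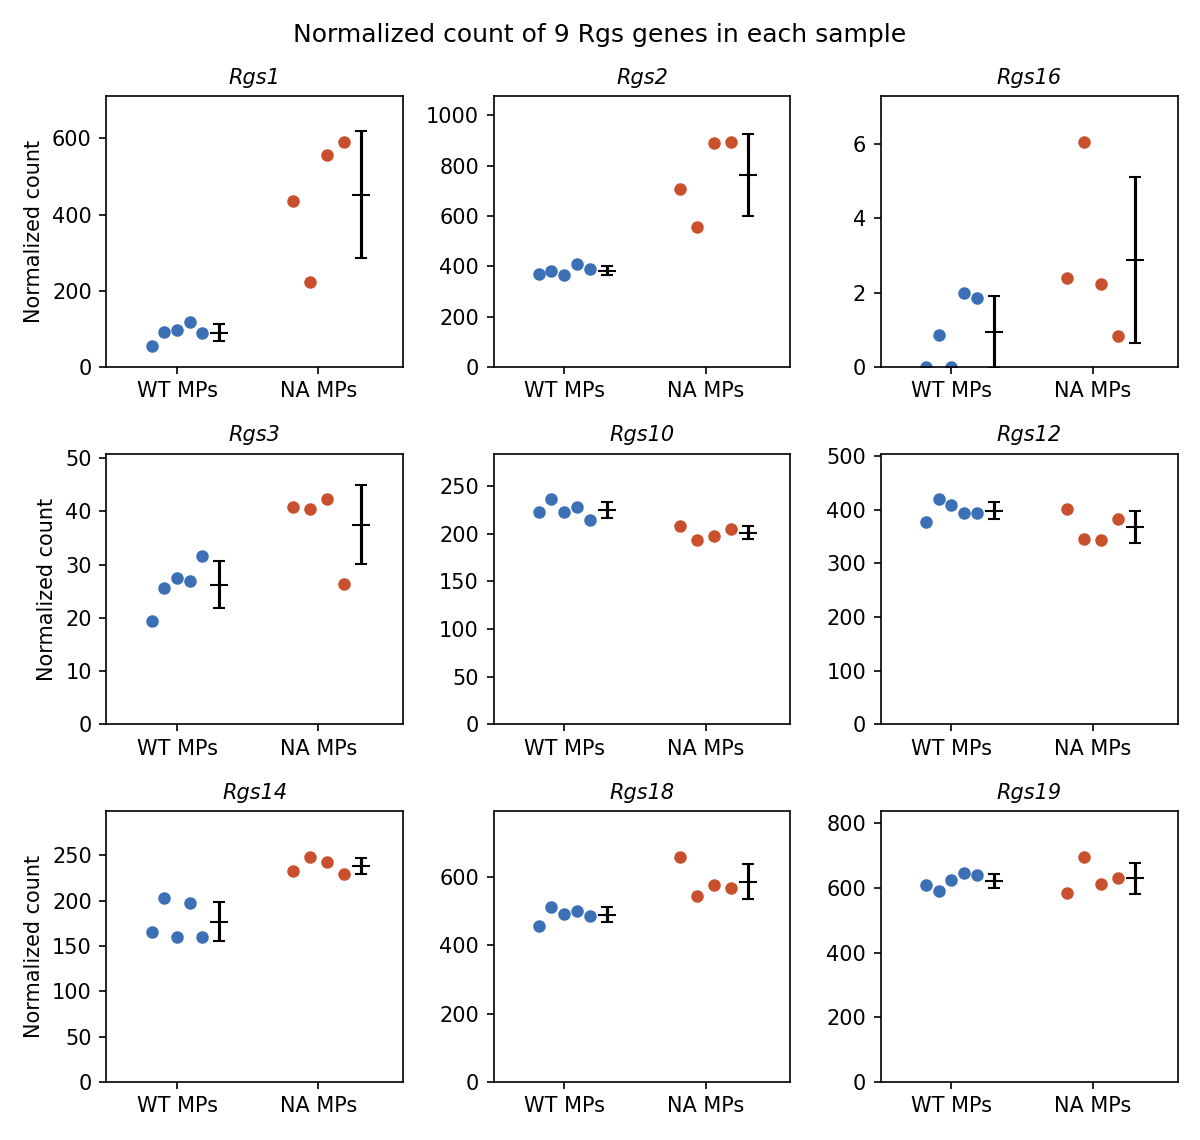
Normalized count (y axis, linear, from 0) of each of the 9 members in 5 WT MP samples (blue) and 4 NA MP samples (red), with the mean and SD in black. Rgs1, Rgs2, Rgs14 and Rgs18 are higher in every NA MP sample than in any WT MP sample, Rgs10 is lower, and Rgs16 stays at 6.07 or less.

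Rgs1, which turns off chemokine receptor signals in lymphocytes, rose most among the members. Its normalized counts were 437, 223, 557 and 592 in NA MP replicates 1 to 4 and 54.0, 92.4, 96.8, 118 and 90.4 in WT MP replicates 1 to 5. Replicate 2 was the lowest NA MP sample, and it was still above the highest WT MP sample. The mean was 452 ± 166 in NA MPs and 90.3 ± 23.1 in WT MPs. The log2 fold change was 2.26 (95% interval 1.45 to 3.07, adjusted p = 0.00164 from limma), and 1.02% of all tested genes changed by as much in either direction.

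Rgs2, which acts on Gq alpha subunits more than most of its relatives do, rose by less. It had 708, 557, 888 and 895 normalized counts in NA MPs and 370, 379, 367, 409 and 388 in WT MPs. The WT MP samples lay close together, with a mean of 383 ± 17.0, while NA MPs spread over 762 ± 162 without reaching down to them. The log2 fold change was 0.97 (95% interval 0.63 to 1.30, adjusted p = 0.00138 from limma), and 4.35% of all tested genes changed by as much.

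Rgs16, known for its induction in activated lymphocytes, was hardly detected. It had 2.40, 6.07, 2.23 and 0.827 normalized counts in NA MPs and 0, 0.856, 0, 2.0 and 1.86 in WT MPs. Only NA MP replicate 2 was above the floor of 3 counts, and the groups overlapped, so no fold is given. Rgs16 did not pass the filter on low values, and without that filter it was not past the threshold (adjusted p = 0.123 from limma).

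The ratio of Rgs1 to Rgs2 was higher in NA MPs with all samples included. With any 1 sample left out it was not past the threshold, but the test then has too few splits to decide. The log2 ratio of Rgs1 to Rgs2 within a sample ran from -1.31 to -0.60 in NA MPs and from -2.73 to -1.78 in WT MPs, a difference of 1.28 between the group means. The exact two-sided permutation test over the 126 ways to choose 4 of 9 samples gave p = 0.0159, the smallest it allows, and 0.0476 after adjustment over the 3 pairs of quickly induced members. With 1 sample left out the difference was 1.12 to 1.45, with an adjusted p of 0.0536 to 0.107 in the exact permutation test. Fewer samples leave fewer splits, so the smallest p that the test allows is larger. A single pair could not then pass after adjustment over the 3 pairs, so the lost call does not measure stability. The ratios to Rgs16 rest on its low counts. The differences between the group means were 1.56 for Rgs1 (adjusted p = 0.119 in the exact permutation test) and 0.28 for Rgs2 (adjusted p = 0.571 in the exact permutation test).

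Among the other members, Rgs14, Rgs18 and Rgs3 were higher in NA MPs. Rgs14, which binds Gi alpha subunits and also Ras family proteins, had 233, 249, 243 and 229 normalized counts in NA MPs and 165, 203, 160, 197 and 160 in WT MPs. The NA MP samples lay together above every WT MP sample, and WT MP replicates 2 and 4 lay above the other WT MPs. The log2 fold change was 0.43 (95% interval 0.28 to 0.59, adjusted p = 1.32e-05 from limma). Rgs18, found mainly in blood cells and best known in platelets, had 659, 543, 575 and 567 normalized counts in NA MPs and 455, 513, 491, 500.3 and 485 in WT MPs. NA MP replicate 1 was highest and the groups did not overlap, with a log2 fold change of 0.26 (95% interval 0.15 to 0.36, adjusted p = 8.34e-05 from limma). Rgs3, which also binds G protein beta and gamma subunits, was the lowest member that could be tested. It had 40.8, 40.4, 42.3 and 26.4 normalized counts in NA MPs and 19.4, 25.7, 27.5, 27.0 and 31.7 in WT MPs, so NA MP replicate 4 lay among the WT MP samples. The log2 fold change was 0.49 (95% interval 0.12 to 0.86, adjusted p = 0.0323 from limma). This call was lost without any 1 of NA MP replicates 1, 2 and 3 and WT MP replicates 1 and 2, with adjusted p = 0.0826, 0.0884, 0.106, 0.0967 and 0.0539 from limma.

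Rgs10, Rgs12 and Rgs19 did not pass the threshold. Rgs10, a small RGS protein of platelets and macrophages, had 208, 193, 197 and 205 normalized counts in NA MPs and 222, 236, 222, 228 and 214 in WT MPs. The highest NA MP sample lay just below the lowest WT MP sample, and the log2 fold change was -0.16 (95% interval -0.30 to -0.03, adjusted p = 0.0580 from limma). Rgs12, a large protein with further domains besides the RGS domain, had 402, 345, 343 and 384 normalized counts in NA MPs and 377, 420.1, 409, 394 and 393 in WT MPs, which overlap. Its log2 fold change was -0.12 (95% interval -0.23 to -0.0027, adjusted p = 0.108 from limma). Without NA MP replicate 1 it was -0.16 and past the threshold (adjusted p = 0.0311 from limma). Rgs19, which acts on Gi alpha subunits, had 586, 698, 611 and 630 normalized counts in NA MPs and 609, 590, 627, 645 and 639 in WT MPs. The groups lay over each other, and the log2 fold change of 0.02 had a 95% interval from -0.08 to 0.11 (adjusted p = 0.798 from limma).

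**Figure D2:**
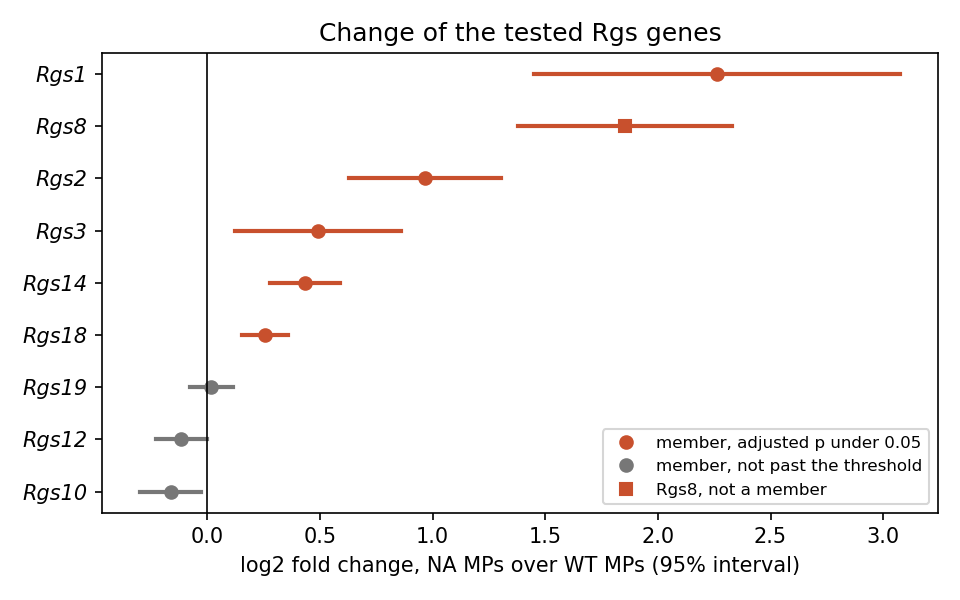
log2 fold change of NA MPs over WT MPs with its 95% interval (x axis) for the 8 tested members (circles) and Rgs8 (square), in red where the adjusted p is under 0.05. Rgs1 lies at 2.26 and Rgs2 at 0.97, and the 6 other members between -0.16 and 0.49.

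Levels of different genes can be compared only per length, so normalized counts were divided by the length of the GENCODE transcript with the longest coding sequence. In WT MPs the order of the mean levels per kilobase was Rgs19 (436 ± 15.8), Rgs10 (255 ± 9.22), Rgs18 (241 ± 10.5), Rgs2 (127 ± 5.62), Rgs12 (84.6 ± 3.51), Rgs14 (75.1 ± 8.96), Rgs1 (23.5 ± 6.02), Rgs3 (6.75 ± 1.14) and Rgs16 (0.404 ± 0.414). Rgs10 and Rgs18 were within their spread, as were Rgs12 and Rgs14. In NA MPs the order was Rgs19 (442 ± 33.5), Rgs18 (288 ± 24.9), Rgs2 (252 ± 53.6), Rgs10 (228 ± 7.70), Rgs1 (118 ± 43.3), Rgs14 (101 ± 3.83), Rgs12 (78.2 ± 6.22), Rgs3 (9.65 ± 1.91) and Rgs16 (1.23 ± 0.957). There Rgs2 was within its spread of both Rgs18 and Rgs10, and Rgs1 of both Rgs14 and Rgs12. These levels depend on the transcript chosen, as the annotated coding transcripts of Rgs2 run from 588 to 3021 bases and those of Rgs19 from 642 to 1511.

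Rgs1 and Rgs2 had the widest spread of the tested members among NA MPs, and Rgs1 also among WT MPs. Among NA MPs the SD of log2(normalized count + 2) was 0.64 for Rgs1 and 0.32 for Rgs2. Like genes were the tested genes within 1 log2 unit of the same mean level over all samples of both groups. For Rgs1, which was lower in WT MPs, this mean lies above its WT MP level. Of the like genes, 0.167% of 4186 and 0.366% of 4366 had an SD as large among NA MPs. Among WT MPs, Rgs1 varied as well, with an SD of 0.41 that 0.143% of like genes reached, whereas Rgs2 had an SD of 0.063 that 54.3% of them reached. Rgs10 varied little in both groups, at 0.048 in NA MPs and 0.051 in WT MPs. Rgs14 varied more in WT MPs (0.17) than in NA MPs (0.054), and Rgs12, Rgs18 and Rgs19 had SDs between 0.053 and 0.12 in either group. For Rgs3, at its low level, the SDs of 0.30 and 0.24 were near the medians of like genes (0.23 and 0.23).

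**Figure D3:**
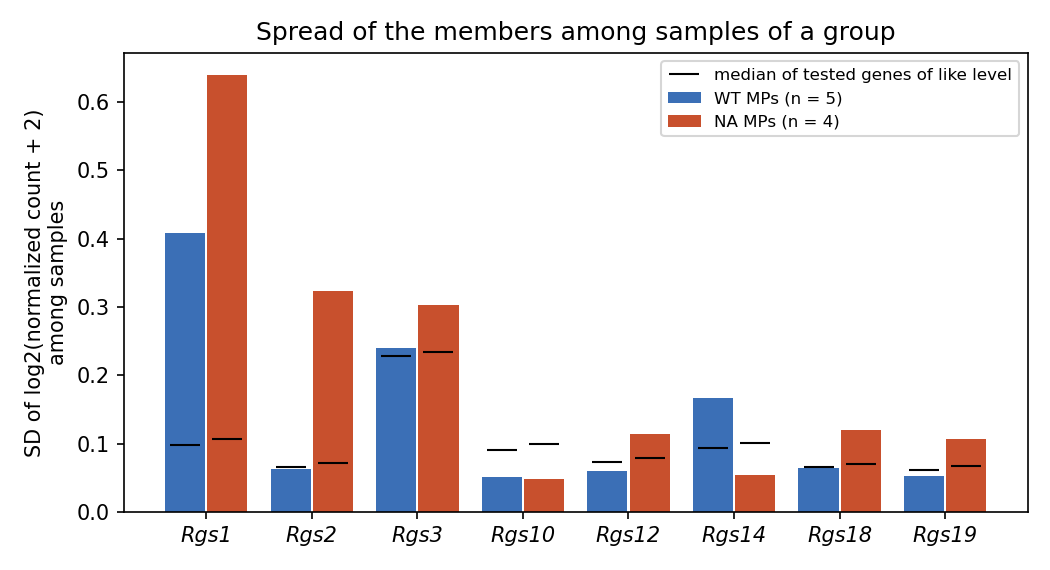
SD of log2(normalized count + 2) among samples (y axis, from 0) for the 8 tested members, in WT MPs (blue, 5 samples) and NA MPs (red, 4 samples), with the median SD of tested genes of like level as a black dash. Like level was judged by the mean over both groups. Rgs1 stands above the dash in both groups, and so does Rgs3 by less. Rgs2, at 0.32, and Rgs12, Rgs18 and Rgs19 stand above it only in NA MPs, and Rgs14 only in WT MPs.

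Immediate early genes, which cells transcribe within minutes of a stimulus, were followed in the same samples because Rgs1 and Rgs2 are induced in the same way. Of 27 listed genes 22 were tested, and 19 of them were higher. None was lower, and the median of their log2 fold changes was 1.84. Fos had 4598 ± 1503 normalized counts in NA MPs and 617 ± 203 in WT MPs, with a log2 fold change of 2.90 (adjusted p = 0.000372 from limma). Egr1 (2.80), Dusp1 (2.91, a gene with an exon overlap) and Nr4a1 (2.77) rose as well. The mean log2 level of the 22 genes was 8.66, 8.29, 9.34 and 9.40 in NA MP replicates 1 to 4 and 6.63, 6.82, 7.15, 7.46 and 7.28 in WT MP replicates 1 to 5. Replicate 2 was lowest and replicate 4 highest of the NA MPs in this mean, in Rgs1 and in Rgs2, with replicates 1 and 3 in the same order between them. Of the WT MPs, replicate 1 was lowest and replicate 4 highest in this mean and in Rgs1. Rgs2 was also highest in replicate 4 but lowest in replicate 3, and replicate 5, next to the highest in the mean, was next to the lowest in Rgs1. The part of this response in the rises of Rgs1 and Rgs2 was not tested, and how long cells were handled before lysis is not given in the sources used here.

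**Figure D4:**
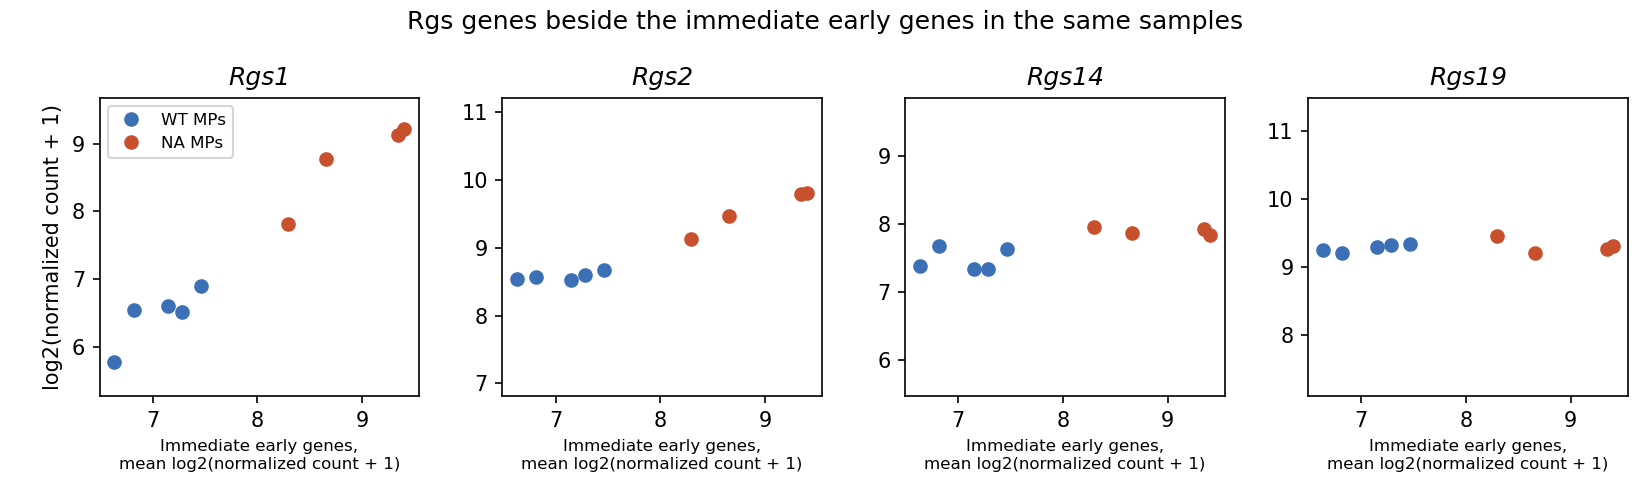
log2(normalized count + 1) of Rgs1, Rgs2, Rgs14 and Rgs19 (y axes, each spanning the same range) against the mean log2 level of 22 immediate early genes (x axis) in 5 WT MP samples (blue) and 4 NA MP samples (red). NA MPs lie to the right, at 8.29 to 9.40, and their order along the x axis is also that of Rgs1 and Rgs2. In WT MPs the order along the x axis is neither that of Rgs1 nor that of Rgs2.

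The 3 tested genes whose pattern over the 9 samples was most like that of Rgs1 were on the immediate early list. By the root mean square difference in log2 level, each taken relative to its WT MP mean, these were Zfp36 (0.19), Jun (0.22) and Jund (0.24). Each of them overlaps an exon of another gene. Next in this order were Gm11175 (0.25), an antisense gene that overlaps Jund, the chemokine gene Ccl3 (0.25), Klf6 (0.27) and Hoxa5 (0.41). Of these, only Klf6 is on the list. The genes most like Rgs2 were Tuba1a (0.066), Ajuba (0.085) and Dusp6 (0.094). Tuba1a, an alpha tubulin, rose from 85.3 to 168 normalized counts, Ajuba, an adaptor of cell contacts, from 21.4 to 44.2, and Dusp6, a phosphatase of ERK, from 253 to 487.

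Markers of other cells moved with the groups too. All 12 tested pro-B and pre-B genes were higher in NA MPs, and the 13 listed genes, none of them at 0, summed to 1499 to 2691 normalized counts in NA MPs and 388 to 425 in WT MPs. A gene low in WT MPs could pass the filter only through NA MPs. With at least 10 required in every sample, 7 of these genes were tested and 7 were higher. Rgs1 and Rgs14 are also expressed in B lineage cells. The sum was lowest in NA MP replicate 1 and highest in replicates 2 and 3. Rgs14 was also highest in replicates 2 and 3, though lowest in replicate 4, while Rgs1 was lowest in replicate 2. Mature B cell genes (1 of 3 tested higher, 1 lower) summed to 455 to 792 in NA MPs and 676 to 817 in WT MPs, or to 10.8 to 25.3 and 10.2 to 15.1 without the MHC class II genes Cd74 and H2-Aa, which other cells express too. Cd3e and Cd3g of T cells were at 0 in all samples. Megakaryocyte genes, whose cells express Rgs18 and Rgs10, summed to 1472 to 1695 in NA MPs and 1479 to 1640 in WT MPs, with 1 of 8 tested genes higher (Itga2b, 0.19) and 3 lower (among them Treml1, -0.96, and Vwf, -0.51). Of 9 tested erythroid genes 7 were lower, with sums of 2224 to 2731 in NA MPs and 3435 to 3657 in WT MPs. The part of these cells in the changes of the members was not tested.

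Sums were also higher in every NA MP sample for mast cell and basophil genes (3508 to 3970 against 2607 to 2872, 5 of 7 tested genes higher and 1 lower), T and NK cell genes (1906 to 2045 against 1665 to 1816, with Nkg7 as the only gene tested), stroma and endothelium genes (983 to 1068 against 773 to 812, 2 of 2 higher) and neutrophil genes (3421 to 5310 against 2889 to 3407, 3 of 8 higher and 1 lower). Of the stroma and endothelium genes only Col1a2 and Pecam1 were tested, as Col1a1, Cxcl12, Lepr, Cdh5, Kdr and Emcn were too low. Sums overlapped for monocyte and macrophage genes (6910 to 7816 against 6256 to 6924, 5 of 7 higher and 1 lower), dendritic cell genes (2754 to 3340 against 2779 to 3061, 2 of 4 higher, Cd209d at 0) and MP genes (167459 to 183319 against 164333 to 170835, 3 of 10 higher and 2 lower).

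The remaining Rgs genes were low or listed at 0. Of 11 in the table, 5 were listed at 0 in all samples (Rgs4, Rgs13, Rgs17, Rgs20 and Rgs22), and 5 were too low to test. Of these 5, Rgs11 reached 4.13 to 6.07 normalized counts in NA MPs and 0 to 5.09 in WT MPs, and Rgs9 at most 4.45. Rgs8, best known from brain and a neighbour of Rgs16, was the only one tested. It had 28.8, 27.3, 39.0 and 39.7 normalized counts in NA MPs and 8.63, 8.56, 8.15, 7.0 and 10.2 in WT MPs, and the groups were far apart. Its log2 fold change was 1.85 (95% interval 1.38 to 2.33, adjusted p = 1.89e-08 from limma), and it overlaps an antisense gene. Rgs8 passed the filter of at least 10 in at least 4 samples only through the NA MPs. A gene this low in WT MPs could be tested only where it was higher in NA MPs, so the call is limited by that selection. With at least 10 required in every sample Rgs8 was not tested. Along the run of Rgs genes on chromosome 1, Rgs2 rose by 0.97, Rgs13 was listed at 0, Rgs1 rose by 2.26 and Rgs18 rose by 0.26 on the log2 scale. Of the protein-coding genes on either side of that run, Uchl5 had a log2 interval from -0.13 to 0.05 (adjusted p = 0.512 from limma) and Brinp3 was listed at 0.

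The targets of RGS proteins, the G protein alpha subunits, changed little. Over all tested genes 16.9% were higher and 17.3% lower, the shares to set beside this list and those that follow. Of 11 tested alpha subunits, 2 were higher and none lower (median on the log2 scale 0.05). Gnai2, the main Gi alpha subunit of leukocytes, was highest and rose by 0.12 (4766 ± 203 against 4395 ± 140 normalized counts, adjusted p = 0.00102 from limma). Gna14, of the Gq family, rose by 0.83 from a low level (100.2 ± 11.1 against 55.9 ± 4.32). Gnai3 (0.07), Gnaq (0.07) and Gna13 (0.05) were not past the threshold. Of 11 tested beta and gamma subunits, 4 were higher, among them Gnb4 (0.70) and Gngt2 (1.06), and 1 lower, Gng11 (-0.68), with a median of 0.07.

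Receptors moved in both directions. Of 25 tested G protein-coupled receptors, 9 were higher and 3 lower (median on the log2 scale 0.04). Cxcr4, the chemokine receptor that holds progenitors in the marrow, was the most counted of them and did not pass the threshold (848 ± 108 against 873 ± 56.5 normalized counts, 95% interval of the log2 fold change -0.25 to 0.15). S1pr1, a receptor for egress into blood, rose by 0.70 (58.4 ± 9.47 against 35.7 ± 5.98). The largest changes were those of Ccr1 (1.79), Ptger3 (-1.06) and Gpr183 (0.95), and F2r, the thrombin receptor, rose by 0.61. Among the kinases and arrestins that uncouple receptors, 4 of 7 tested were higher and 2 lower. Grk2 rose by 0.24 and Grk3 by 0.38, while Arrb1 (-0.22) and Grk5 (-0.84) were lower.

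Other genes with an RGS or RGS-like domain did not share a direction. Of 8 tested, 1 was higher and 3 were lower, with a median of -0.04. Arhgef1, a guanine nucleotide exchange factor, rose by 0.22 (2920 ± 73.0 against 2500 ± 30.9 normalized counts), and its relative Arhgef12 fell by 1.40 on the log2 scale (62.1 ± 8.80 against 165 ± 10.9), with an exon overlap. Snx25 (-0.37) and Snx14 (-0.18) were the other 2 lower genes. Of 6 tested genes that bind alpha subunits in other ways, Gpsm3 (0.33) and Ric8a (0.28) were higher and Gpsm2 (-0.46) was lower.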

How the data were processed

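RNA-seq of 4 NA MP and 5 WT MP samples was analysed. The authors estimated gene counts with RSEM, and the submitters' processing notes also name bcl2fastq, DESeq2 and mm10; versions and annotation are not given in the sources used here. The deposited signal is a normalized count: of the values above 0, 97.6% to 98.0% per sample were whole multiples (within 0.05) of a step of 0.827 to 1.20, whose inverse matched median-of-ratios factors computed from the data (ratio 0.998 to 1.00). The values are thus counts divided by size factors, not raw counts, and the count-based test first planned was replaced by limma 3.58.1 (R 4.3.3; trend and robust options) on log2(value + 1). Genes with at least 10 in at least 4 samples were tested, at an adjusted p of 0.05. The fit was tested on simulated data with known changes.

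Symbols were matched for 32916 of 37980 identifiers. Lists were described by counts and medians only. The members and lists were chosen with earlier results of these data known. Named by rule were the members and other tested Rgs genes. For each pathway list they were the 3 called genes with the largest change and up to 3 of the highest level. For each marker list they were up to 2 called genes, and for Rgs1 and Rgs2 the 3 genes most alike. Which of these to print was chosen after values were seen. So were Snx14, Itga2b, Vwf, Mpo, Kit, Gm11175, Ccl3, Klf6, Hoxa5, Rgs9 and Rgs11. Gene models, lengths and overlaps came from GENCODE M21 (GRCm38) and promoters from RefSeq. Alternatives changed the scaling, filter, threshold and fit options, left out 1 sample, or took the replicate number as a block.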

Additional observations from a re-analysis of the deposited data

Results flagged for a closer look

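Examined were 44 groups of samples, for the members, Rgs8, the immediate early list and the marker lists. Of these, 1 held a sample far from the rest, where chance gives about 1 in 20, or 2.2. NA MP replicate 4 had 26.4 normalized counts of Rgs3 against 40.4 to 42.3 in the other NA MP samples.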

How the results depend on the processing

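Over 19 alternatives, 4 to 6 members were past the threshold, and Rgs1, Rgs2, Rgs14 and Rgs18 were past it with the same direction in all 19. The number of all genes past it ran from 2857 to 4183. Rgs3 was not past it at an adjusted p of 0.01 (log2 fold change 0.49), with quantile normalization (0.36, adjusted p = 0.126 from limma), without the mean-variance trend (0.49, adjusted p = 0.0601) and in 5 of the 9 fits that left out 1 sample, which ranged from 0.39 to 0.65. Rgs10 was past it with scaling by library size only (-0.18, adjusted p = 0.0369), without the robust option (-0.16, adjusted p = 0.0484) and without the trend (-0.16, adjusted p = 0.0186). With 1 sample left out, Rgs12 ranged from -0.16 to -0.083 and Rgs19 from -0.030 to 0.053, negative without NA MP replicate 2. The ratio of Rgs1 to Rgs2 ranged from 1.12 to 1.45 with 1 sample left out. It was then not past the threshold (adjusted p of 0.0536 to 0.107 in the exact permutation test). A single pair could not reach the threshold with so few splits. The ratio of Rgs1 to Rgs16 was 0.94 with a prior count of 0.5 and 1.17 to 2.14 with 1 sample left out. The ratio of Rgs2 to Rgs16 was -0.36 with a prior count of 0.5 and ran from -0.037 to 0.69 with 1 sample left out, negative without NA MP replicate 4. The cause of these differences was not tested.

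Counts of listed genes past the threshold moved by over 1.5 times as follows. Without a filter they were 2 for the other Rgs genes, 1 for mature B cells and 2 for T and NK cells. With at least 10 in every sample they were 0 for the other Rgs genes, 7 for pro-B and pre-B cells, 1 for mature B cells and 1 for stroma and endothelium, where fewer genes were tested. At an adjusted p of 0.01 they were 3 for the Gq pathway, 0 for mature B cells, 1 for neutrophils and 1 for dendritic cells. Without the trend they were 1 for the G protein alpha subunits, 0 for mature B cells, 1 for dendritic cells and 3 for MPs. With quantile normalization the count was 1 for mature B cells. With 1 sample left out they ran from 3 to 6 for the Gq pathway, 0 to 2 for mature B cells, 2 to 5 for neutrophils and 1 to 3 for dendritic cells.

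The labels number the replicates of both groups, but same-numbered samples did not deviate together (correlations of -0.0204 to 0.0573), so they share only a number. With the replicate number as a block, 3693 of all genes and 5 members were past the threshold, 1 mature B cell gene and 1 dendritic cell gene. Tests with edgeR (RLE factors) and DESeq2 and the fit of unrounded counts were planned but not run. The deposited values are not counts, and counts were not worked back from the steps for these tests. Quantile normalization, other pseudocounts and the fit without the trend were chosen after seeing the data. The count of 3 that limits a single value is near the level of Rgs16, whose groups could not be told apart at this depth.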

Other observations

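Downstream of the alpha subunits, the shares of cAMP and Gq pathway genes past the threshold were near that of all tested genes (34.3%). Of 19 tested cAMP pathway genes, 3 were higher in NA MPs and 5 lower (median on the log2 scale -0.04). Pde4b, a phosphodiesterase that breaks down cAMP, rose by 0.52 and the regulatory subunit Prkar2b of protein kinase A fell by 0.26 on the log2 scale, while Adcy9, an adenylate cyclase that makes cAMP, fell by 0.66. Of 14 tested Gq pathway genes, 4 were higher and 1 lower, with a median of 0.06. Prkca (0.81), Nfatc2 (0.50) and Itpr3 (0.44) rose, and Rcan1, a target and inhibitor of calcineurin, was lower (-0.29), a call that was lost at an adjusted p of 0.01, without the mean-variance trend, and without NA MP replicate 1, WT MP replicate 2 or WT MP replicate 5. The phospholipase Plcb2, the most counted gene of that list, was at -0.04 and did not pass the threshold.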
